A study of Mus musculus with 6 samples.

Results

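Collagens and the glycoproteins that assemble with them form the scaffold around cells. Fibrillar collagens build long fibrils, collagen IV builds the sheet of basement membranes, and glycoproteins such as fibronectin, tenascin C and the thrombospondins link that scaffold to receptors on cells. In the healthy brain, fibrillar collagen is sparse and lies mainly in the meninges and around vessels, while glial cells make much of the remaining matrix. The genes described here come from RNA-seq of mouse brain tumors. They were chosen by symbol and without a threshold on any value, but with earlier results of these data known. All rows of the count table whose symbol has the form of a collagen chain were taken, together with a set of named matrix glycoproteins, proteoglycans and lysyl oxidases. This gave 65 of 24537 genes, made up of 11 fibrillar collagens, 8 basement membrane collagens, 25 other collagens and 21 genes that are not collagens. Ccn1 and Ccn2 stand in the table under their older symbols Cyr61 and Ctgf.

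Tumors arose after in utero electroporation, which brings injected DNA into cells of the embryonic brain with electric pulses. The 3 libraries titled FOXR2 came from tumors with the mutant receptor PdgfraD482V, a dominant-negative p53 (DNp53) and FOXR2, a forkhead transcription factor. The 3 libraries titled Control came from tumors with PdgfraD482V and DNp53 alone, so the mutant receptor and the p53 construct are shared by both groups. All mice were of the outbred CD-1 IGS strain, and neither their ages nor the promoters of the constructs are given in the labels. Whether each sample of a group is a different animal is not stated, and the p-values therefore cover only the spread among these samples. Xist and Y-linked genes showed both sexes in each group (male, female and male in FOXR2 replicates 1, 2 and 3, next to male, female and female in Control replicates 1, 2 and 3), so no group came from 1 animal alone. Each sample is labelled as brain tumor and was read in bulk, so fewer cells of a type and less RNA per cell cannot be told apart.

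The group assignment is contradicted within the deposit, since a sheet beside the count table swaps the group of 6 of 6 libraries. Groups here follow the titles, and were the sheet right, every direction given here would be the opposite one. The mouse Foxr2 row had 22, 1 and 7 counts in FOXR2 replicates 1, 2 and 3, next to 4, 10 and 7 in Control replicates 1, 2 and 3, which does not settle the matter. Depth ran from 13429489 to 17927025 counts per library, and 3 counts, taken as the floor, corresponded to 0.174 to 0.219 CPM (a gene's counts scaled to a common library size with edgeR's TMM method). All 10 markers of the glial lineage reached 3 counts in each library and summed to 4441 to 7388 CPM. FOXR2 replicate 2 stood apart from the other libraries. The sum of 18 microglia and macrophage markers was 1719 CPM there and 47.3 to 67.5 CPM in the other 5 libraries. Csf1r, Itgam, Trem2 and Tyrobp were each below 0.3 CPM outside that library. The endothelial marker Cdh5 and the collagen gene Col1a2 did not exceed 0.116 and 0.174 CPM outside it, whereas the endothelial marker Flt1 reached 12.2 CPM. How much vessel, immune or stromal tissue each sample held was not tested, so the levels need not be those of a whole tumor with its stroma.

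Of the 65 genes, 44 passed the filter on low counts and were tested with all other genes by edgeR's quasi-likelihood test. A gene was called when its Benjamini-Hochberg adjusted p over all 13101 tested genes was under 0.05. Islr and Thbs1 were called, both higher in the libraries titled FOXR2, and no collagen gene was called in either direction. The 2 called genes are 4.55% of the 44 tested, beside 2.29% of all tested genes, 0.908% higher and 1.38% lower. The FOXR2 and Control libraries did not overlap for 10 of the 44 genes, or 22.7%, beside 30.3% of all tested genes. Among these, Thbs1, Bgn, Ctgf and Col26a1 had under 10 counts in every Control library and passed the filter on their FOXR2 libraries alone. Their place among the tested genes thus depended on the difference itself. An unadjusted p under 0.05 was found for 11 of the 44 genes, or 25%, beside 24.9% of all tested genes. The share without overlap was thus below that over all genes, and the share at an unadjusted p was about the same. DESeq2 gave an adjusted p for 37 of the 44, not for Col2a1, Col11a2, Spp1 and 4 others, and called 7 of the 37, or 18.9%, beside 14.6% of all 12542 genes with one, 7.3% higher and 7.34% lower. These were Islr, Thbs1, Postn, Fn1, Col5a1 and Bgn as higher and Col11a1 as lower. Of the 44, 27 had a fitted log2 fold change above 0 and 17 below, with a median of 0.49 beside 0.01 over all tested genes. Since the genes were chosen with earlier results of these data known, an excess over all genes is a description only. Log2 fold changes are FOXR2 over Control, and ± after one is its standard error. This error was derived from the test, as the size of the log2 fold change over the square root of edgeR's F statistic.

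**Figure D1:**
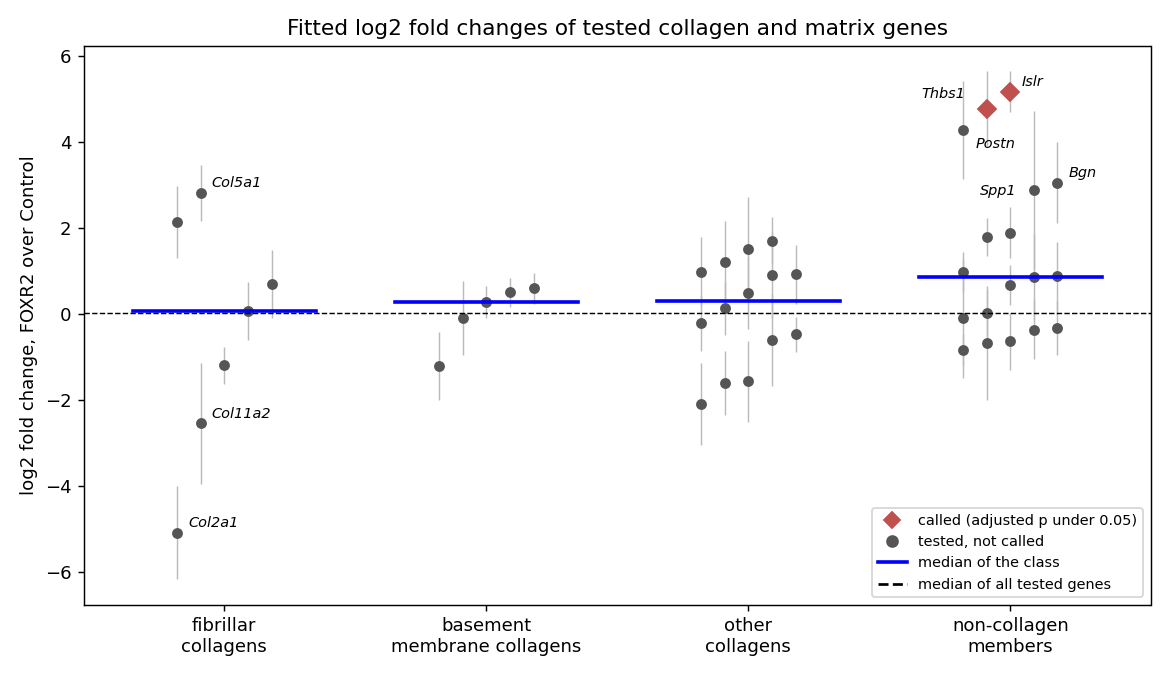
Fitted log2 fold changes (FOXR2 over Control, vertical axis) of the 44 tested genes in 4 classes, with standard errors as thin bars, class medians as blue lines and the median of all tested genes as a dashed line. Islr and Thbs1 are called, and the fibrillar collagens spread from -5.09 to 2.82.

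Among the genes listed as matrix glycoproteins, Islr had the largest fitted log2 fold change of all 44 tested genes. Islr encodes a leucine-rich repeat protein with an immunoglobulin domain, known as a marker of mesenchymal stromal cells. It had 20.9, 16.8 and 42.2 CPM in FOXR2 replicates 1, 2 and 3, against 0.839, 0.596 and 0.755 CPM in Control replicates 1, 2 and 3. All FOXR2 libraries were thus far above all Control libraries, which lay close together. The means were 26.6 ± 13.6 CPM in FOXR2 and 0.730 ± 0.124 CPM in Control (SD, n = 3 each), with a log2 fold change of 5.17 ± 0.47 (adjusted p = 0.0264 by edgeR). Its level in FOXR2 replicate 2 was the lowest of the 3, and without that library the log2 fold change was 5.42 (edgeR adjusted p = 0.0241). The call was lost without FOXR2 replicate 3 or Control replicates 1, 2 or 3 (edgeR adjusted p = 0.0782, 0.103, 0.132 and 0.0523), with a log2 fold change of at least 4.67 in each alternative fit. In FOXR2 replicates 1 and 3, where Islr was highest, the connective tissue genes Col1a2 and Dcn had 0 counts, while the fibroblast marker Prrx1 had 51.2 and 127 CPM. Which cells made Islr was not tested.

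The start regions of Islr, Postn and Col5a1, 3 genes whose groups did not overlap, are shown because they differ widely in base composition. Each window holds 250 bases before and 50 after the start annotated by RefSeq on GRCm38.p6, 5′ to 3′ on the gene's strand, with CG dinucleotides in capitals. The Islr window is at chr9:58158505-58158804 on the minus strand, the Postn window, the downstream one of its 2, at chr3:54360857-54361156 on the plus strand, and the Col5a1 window at chr2:27886175-27886474 on the plus strand.
Islr: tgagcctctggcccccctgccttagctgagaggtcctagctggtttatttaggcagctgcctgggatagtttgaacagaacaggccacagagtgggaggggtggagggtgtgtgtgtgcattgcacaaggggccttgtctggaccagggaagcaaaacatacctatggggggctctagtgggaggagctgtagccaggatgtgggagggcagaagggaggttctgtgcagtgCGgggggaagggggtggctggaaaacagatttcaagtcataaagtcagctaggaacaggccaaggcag
Postn: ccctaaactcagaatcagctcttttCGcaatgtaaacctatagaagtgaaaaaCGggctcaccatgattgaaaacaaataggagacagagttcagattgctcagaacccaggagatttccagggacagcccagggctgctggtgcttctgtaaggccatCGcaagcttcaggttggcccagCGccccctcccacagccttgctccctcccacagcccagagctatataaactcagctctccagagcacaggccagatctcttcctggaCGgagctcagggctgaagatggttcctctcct
Col5a1: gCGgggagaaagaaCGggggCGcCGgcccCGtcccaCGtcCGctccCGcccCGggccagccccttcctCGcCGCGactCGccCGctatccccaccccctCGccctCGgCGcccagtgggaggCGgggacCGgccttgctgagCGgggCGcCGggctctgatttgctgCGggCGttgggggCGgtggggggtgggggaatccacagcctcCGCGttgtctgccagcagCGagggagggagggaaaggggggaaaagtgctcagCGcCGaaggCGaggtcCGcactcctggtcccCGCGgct
Islr has 1 CG dinucleotide in its 300 bases, Postn 5 and Col5a1 34, beside a median of 7 over all 32851 such windows. Their GC contents are 57%, 53% and 75%, beside a median of 52.7%. RefSeq windows were matched for 46 of the 65 genes. The letters CCGGAAG, a binding motif of ETS factors, occurred on either strand in the windows of 1 of these 46 genes, Spp1, beside 9.93% of all 27025 genes with a window. The forkhead letters TGTTTAC occurred in 1 of 46, Col6a1, beside 4.05% of all genes. The letters TATAAA occurred in 10 of 46, Postn and Spp1 among them, beside 15.7% of all genes, and in the Postn window shown they begin at position -26. None of the 3 motifs contains another, and a match is a description and not a binding site.

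Fibronectin was also higher in each FOXR2 library but was not called. Fn1, which encodes this adhesive glycoprotein, had 68.1, 64.9 and 52.9 CPM in FOXR2 replicates 1, 2 and 3, against 13.8, 31.2 and 8.95 CPM in Control replicates 1, 2 and 3. The FOXR2 libraries were close to each other and all above the highest Control library. The log2 fold change was 1.78 ± 0.44 (edgeR adjusted p = 0.0741), and DESeq2 called it (adjusted p = 0.00180). Fibrillin 1, the main component of elastic microfibrils, lay on the other side. Fbn1 had 53.8, 27.2 and 32.1 CPM in FOXR2 replicates 1, 2 and 3, next to 88.4, 73.5 and 39.8 CPM in Control replicates 1, 2 and 3, with a log2 fold change of -0.83 ± 0.37 (adjusted p = 0.213 by edgeR), and its groups overlapped. Fbn2, the close relative of developing tissue, averaged 66.7 ± 22.1 CPM in FOXR2 and 83.7 ± 57.8 CPM in Control (SD, n = 3 each), with the lowest level in Control replicate 3. Nid1, which joins laminin to collagen IV, averaged 3.13 ± 1.02 CPM in FOXR2 and 4.05 ± 3.72 CPM in Control. Tgfbi, an integrin ligand that macrophages also make, had 0.522, 40.7 and 1.09 CPM in FOXR2 replicates 1, 2 and 3, next to 11.1, 7.03 and 27.4 CPM in Control replicates 1, 2 and 3, so that both extremes were FOXR2 libraries. Its log2 fold change was -0.10 ± 1.38 (edgeR adjusted p = 0.972) and -4.23 without FOXR2 replicate 2.

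Matricellular proteins, which are secreted into the matrix and signal to cells more than they support them, held the other called gene. Thbs1 encodes thrombospondin 1, known to restrain vessel growth and to activate latent TGF-beta. It had 1.11, 8.98 and 5.03 CPM in FOXR2 replicates 1, 2 and 3, against 0.120, 0.238 and 0.174 CPM in Control replicates 1, 2 and 3. The groups did not overlap, but the FOXR2 libraries differed widely, with the highest level in replicate 2. In counts these were 17, 142 and 69 in FOXR2, against 2, 4 and 3 in Control, so the size of the difference rests on 9 Control counts in all. The log2 fold change was 4.77 ± 0.87 (edgeR adjusted p = 0.0462). Without FOXR2 replicate 2 it was 4.05 (edgeR adjusted p = 0.0619), and the call was also lost without FOXR2 replicate 3 or any 1 Control library (edgeR adjusted p of 0.102 to 0.164), with animal sex as a covariate (0.111) and with limma-voom (0.114). FOXR2 replicate 2 was the only female library of its group, so within FOXR2 animal sex cannot be told apart from that library.

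Periostin, a matricellular partner of integrins found in mesenchyme and wound matrix, showed a wider spread. Postn had 1.76, 18.8 and 33.3 CPM in FOXR2 replicates 1, 2 and 3, against 0.839, 0.179 and 1.74 CPM in Control replicates 1, 2 and 3. FOXR2 replicates 2 and 3 were far above every Control library, while FOXR2 replicate 1 was level with Control replicate 3. The log2 fold change was 4.27 ± 1.15 and was not called (edgeR adjusted p = 0.0851), though DESeq2 called it (adjusted p = 0.000166). Ctgf, a target of the YAP coactivator, averaged 1.33 ± 0.616 CPM in FOXR2 and 0.354 ± 0.113 CPM in Control (SD, n = 3 each) without overlap, a log2 fold change of 1.89 ± 0.60 (adjusted p = 0.115 by edgeR). Its relative Cyr61 averaged 7.70 ± 5.19 CPM in FOXR2 and 7.65 ± 2.58 CPM in Control. Thbs2, the paralog of Thbs1, ran from 0.219 to 7.85 CPM in FOXR2 and from 1.22 to 9.89 CPM in Control, with a log2 fold change of -0.68 ± 1.32 (adjusted p = 0.784 by edgeR), or -3.85 without FOXR2 replicate 2.

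**Figure D2:**
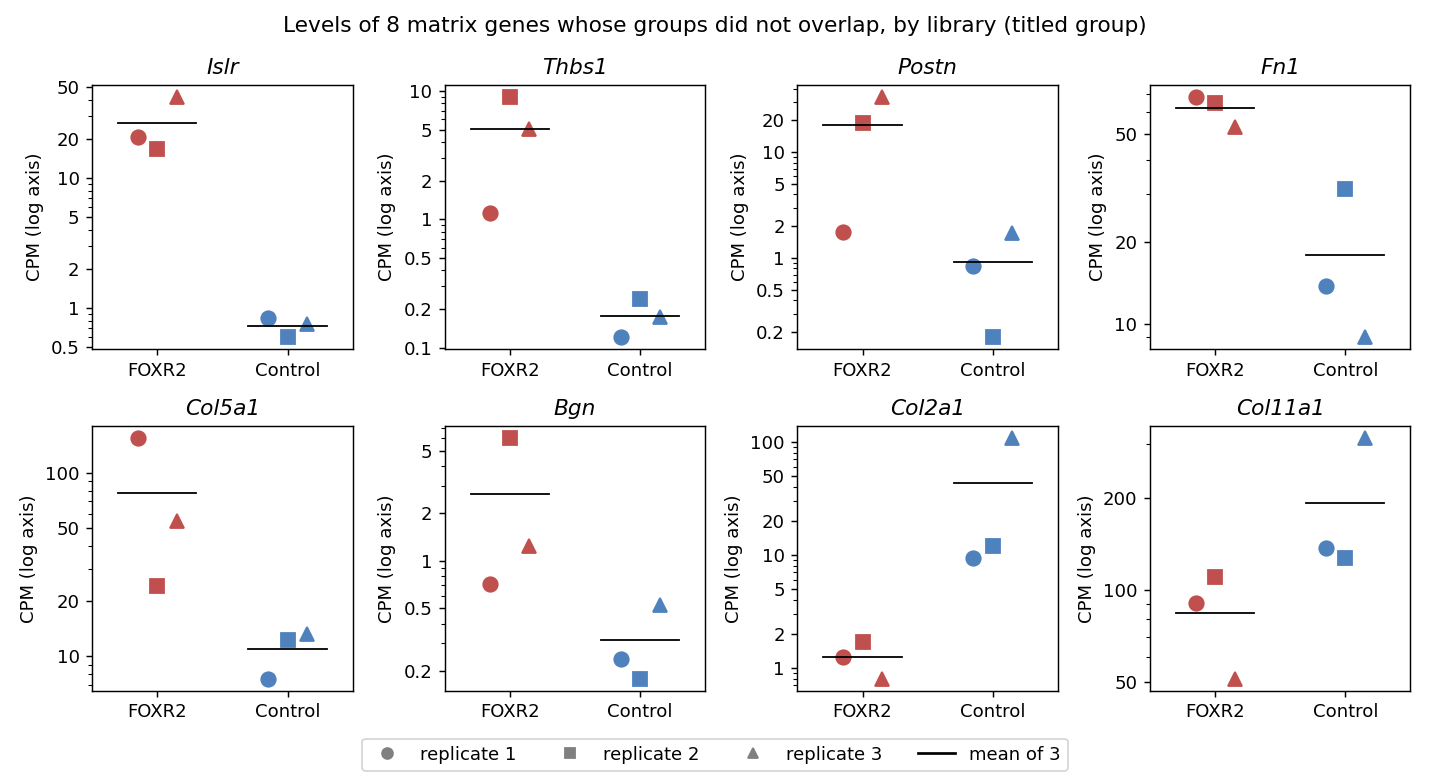
CPM on a logarithmic axis for 8 genes in each library, with FOXR2 libraries in red on the left, Control libraries in blue on the right, replicate numbers as symbols and group means as lines. All FOXR2 levels of Islr lie above all Control levels, whereas Postn and Thbs1 are spread among the FOXR2 libraries and Col2a1 and Col11a1 are highest in Control replicate 3.

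Counted per kilobase of merged exons (RPKM), which allows a rough comparison of levels between genes, 3 matricellular genes led the set. Merged exons pool all annotated transcripts of a gene and can be longer than the transcript made, so orders and shares by RPKM are approximate. Averaged over the 6 libraries, Spp1 reached 72.6 RPKM, Sparc 50.9 and Tnc 38.1. The lead of Spp1 came from 1 library. Spp1, which encodes osteopontin, a ligand of integrins and CD44 that activated macrophages make in quantity, had 6.0, 625 and 1.09 CPM in FOXR2 replicates 1, 2 and 3, against 14.9, 32.2 and 38.5 CPM in Control replicates 1, 2 and 3. FOXR2 replicates 1 and 3 were below every Control library. The log2 fold change was 2.89 ± 1.83 with all libraries and -3.0 without FOXR2 replicate 2 (edgeR adjusted p = 0.373 and 0.0938). In that library 17 of the 18 macrophage markers were at their highest, and their part in the Spp1 level was not tested. Sparc, a collagen-binding glycoprotein of glia and vessels, had 238, 113 and 416 CPM in FOXR2 replicates 1, 2 and 3, next to 96.5, 120.3 and 174 CPM in Control replicates 1, 2 and 3, a log2 fold change of 0.97 ± 0.46 with overlapping groups (edgeR adjusted p = 0.243), or 0.43 without FOXR2 replicate 3. Tnc, the tenascin of glial progenitors and gliomas, had 289, 242 and 163 CPM in FOXR2 replicates 1, 2 and 3, next to 233, 752 and 97.1 CPM in Control replicates 1, 2 and 3. Control replicates 2 and 3 held its highest and lowest levels, and its log2 fold change was -0.64 ± 0.66 (edgeR adjusted p = 0.587), or 0.49 without Control replicate 2.

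The small leucine-rich proteoglycans, which bind collagen fibrils, were near the floor in most libraries. Bgn, the gene of biglycan, had 0.718, 6.01 and 1.24 CPM in FOXR2 replicates 1, 2 and 3, against 0.240, 0.179 and 0.523 CPM in Control replicates 1, 2 and 3. The groups did not overlap, and FOXR2 replicate 2 was well above the rest. Its log2 fold change of 3.05 ± 0.95 was not called (edgeR adjusted p = 0.113) and was 1.61 without that library. Dcn, the gene of decorin, had 0, 62 and 0 counts in FOXR2 and 2, 0 and 8 in Control, and Lum, the gene of lumican, 1, 15 and 0 counts in FOXR2 and 0, 0 and 0 in Control. Both failed the filter on low counts.

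Fibrillar collagens lay on both sides of 0. Of 11 present, 7 were tested, 0 were called by edgeR and 4 had an unadjusted p under 0.05. These 4 are 57.1% of the 7, beside 24.9% of all tested genes, and 42.9% had no overlap of the groups, beside 30.3%. Fitted values were above 0 for 4 and below for 3, with a median log2 fold change of 0.07. Without FOXR2 replicate 2 the median was -0.67. Col5a1 and Col5a2 encode the main chains of collagen V, which starts and limits the growth of collagen I fibrils. Col5a1 had 155, 24.2 and 54.8 CPM in FOXR2 replicates 1, 2 and 3, against 7.56, 12.3 and 13.2 CPM in Control replicates 1, 2 and 3. Each FOXR2 library was above each Control library, and FOXR2 replicate 1 was the highest. The log2 fold change was 2.82 ± 0.65 (edgeR adjusted p = 0.0661), 3.25 without FOXR2 replicate 2 (adjusted p = 0.0456), where edgeR called it, and 1.85 without FOXR2 replicate 1 (adjusted p = 0.0898). Its partner chain Col5a2 did not follow it by library, with 0.783, 4.49 and 6.79 CPM in FOXR2 replicates 1, 2 and 3, next to 1.62, 0.596 and 0.523 CPM in Control replicates 1, 2 and 3 (log2 fold change 2.13 ± 0.84, edgeR adjusted p = 0.176). In FOXR2 replicate 1, Col5a1 was at its highest and Col5a2 close to the Control level. The third chain, Col5a3, averaged 4.44 ± 3.50 CPM in FOXR2 and 4.24 ± 1.15 CPM in Control (SD, n = 3 each). Its fitted log2 fold change was 0.07 ± 0.68 (edgeR adjusted p = 0.962) and -0.67 without FOXR2 replicate 2.

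Collagens II and XI, the fibril pair known from cartilage, lay below 0. Col2a1 had 1.24, 1.71 and 0.803 CPM in FOXR2 replicates 1, 2 and 3, against 9.41, 11.9 and 108 CPM in Control replicates 1, 2 and 3. Every FOXR2 library was below every Control library, and Control replicate 3 was far above the other two. The log2 fold change was -5.09 ± 1.09 (edgeR adjusted p = 0.0577) and -3.08 without Control replicate 3 (adjusted p = 0.0699). Col11a1, the most abundant fibrillar chain per kilobase at 10.8 RPKM over all libraries, had 90.3, 109.8 and 51.2 CPM in FOXR2 replicates 1, 2 and 3, against 137, 127 and 314 CPM in Control replicates 1, 2 and 3. These groups also did not overlap, with a log2 fold change of -1.20 ± 0.43 (adjusted p = 0.147 by edgeR), or -0.65 without Control replicate 3. Col11a2 had 1.04, 32.2 and 6.20 CPM in FOXR2 replicates 1, 2 and 3, next to 17.0, 11.3 and 203 CPM in Control replicates 1, 2 and 3, and its groups overlapped. Its log2 fold change was -2.55 ± 1.41 with all libraries (edgeR adjusted p = 0.307) and -0.10 without Control replicate 3. Col27a1 was at or below 1.34 CPM in all 6 libraries, and Col24a1 had 1 count in each of FOXR2 replicates 2 and 3 and 0 in the others.

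The chains of collagens I and III, the main fibrils of connective tissue, were close to absent outside 1 library. Col1a1 had 9, 191 and 16 counts in FOXR2 replicates 1, 2 and 3, next to 4, 4 and 8 in Control replicates 1, 2 and 3. Col1a2 had 0, 201 and 0 counts in FOXR2 and 1, 1 and 3 in Control, and Col3a1 2, 195 and 0 counts in FOXR2 and 1, 3 and 1 in Control. All 3 reached about 12 CPM in FOXR2 replicate 2 and failed the filter. The basement membrane chain Col15a1, Col8a1, Lum, Dcn and the crosslinking enzyme gene Lox, which also failed it, were likewise highest in that library. These 8 genes, grouped after their values were seen, summed to 52.6 CPM in FOXR2 replicate 2 and to 1.25 to 2.16 CPM in the other 5 libraries.

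Markers of other cell types were compared over the same libraries. Of 14 markers of fibroblasts and meninges, 12 reached 3 counts in FOXR2 replicate 2 and 6 to 7 in each other library. Of the 13 with a count, 7 were highest in FOXR2 replicate 2. Foxc1 and Twist1 were at their lowest there, at 0.823 and 0.569 CPM, against 0.929 to 2.26 and 0.600 to 5.22 CPM elsewhere. The sum of the 14 was 139 CPM in FOXR2 replicate 2 and 67.9 to 163 CPM elsewhere, most of it from Prrx1 and Pcolce, while Slc22a6 was at 0 in every library. Of 12 endothelial markers, 8 were highest in FOXR2 replicate 2, where Pecam1 had 2.02 CPM, against 0.0596 to 0.391 CPM in the others. Flt1 and Kdr were not, at 5.31 and 1.90 CPM there, against 0.219 to 12.2 and 0.876 to 2.68 CPM in the others. The endothelial sum was 27.6 CPM in FOXR2 replicate 2 and 8.16 to 28.4 CPM in the others. Of 11 markers of mural cells, 4 were highest there, among them Pdgfrb at 3.35 CPM, against 0 to 0.120 CPM in the others. Notch3 was at its lowest there, at 9.36 CPM, against 12.8 to 33.1 CPM in the others. The sum of the 11 was 29.4 CPM in FOXR2 replicate 2, against 16.5 to 36.8 CPM in the others. Over all 65 matrix genes, 25 were highest in FOXR2 replicate 2, or 38.5%, beside 20.3% of the 18511 genes with a count. The part of these cell types in the matrix genes was not tested.

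**Figure D3:**
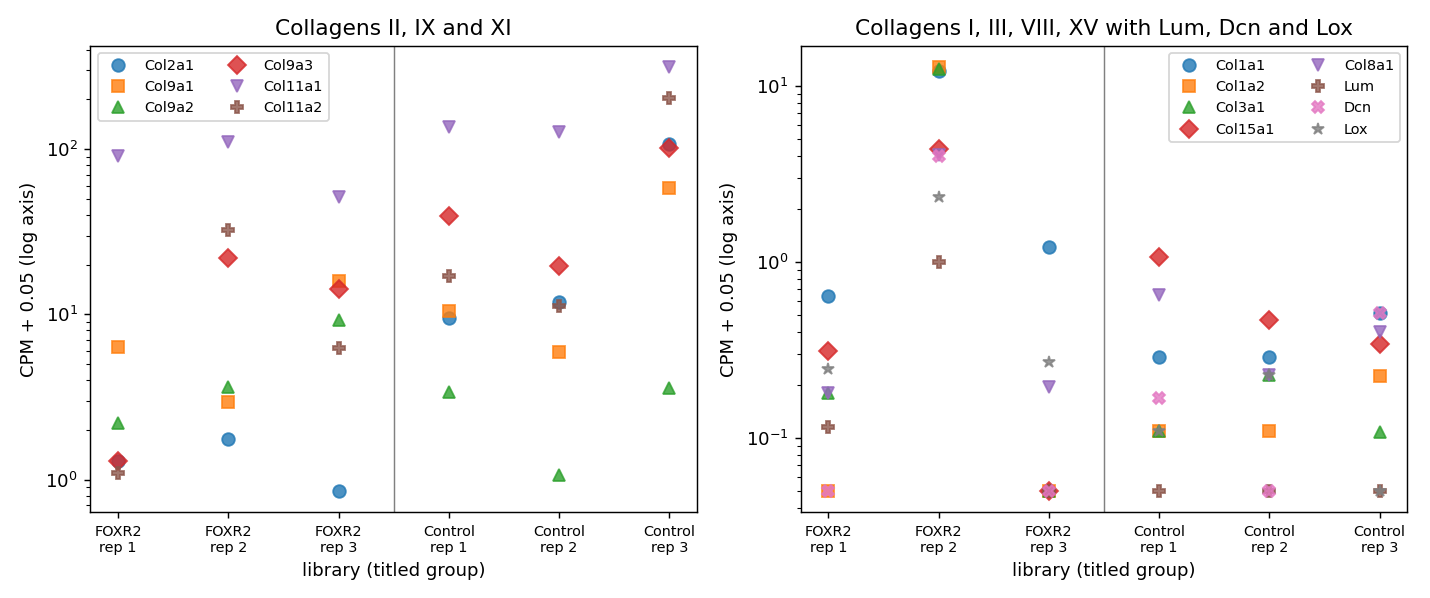
CPM plus 0.05 on a logarithmic axis in each library for the chains of collagens II, IX and XI (left panel) and for 8 genes of connective tissue matrix (right panel), with points at 0.05 standing for 0 counts. The left set reaches its highest levels in Control replicate 3, with Col9a2 as the exception, and the right set in FOXR2 replicate 2.

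Basement membrane collagens were the largest class of collagen mRNA in 5 of the 6 libraries, and none of them was called. Of 8 present, 5 were tested, edgeR called 0 and found 0 with an unadjusted p under 0.05, beside 24.9% of all tested genes. The FOXR2 and Control libraries overlapped for each of the 5, while 30.3% of all tested genes had no overlap. The median log2 fold change was 0.27. Col4a1, which with Col4a2 forms the common network of basement membranes, had 467, 206 and 236 CPM in FOXR2 replicates 1, 2 and 3, next to 191, 149.7 and 262 CPM in Control replicates 1, 2 and 3 (log2 fold change 0.59 ± 0.36, edgeR adjusted p = 0.355). FOXR2 replicate 1 was the highest, the remaining libraries overlapped, and the log2 fold change was 0.15 without FOXR2 replicate 1. Col4a2 averaged 91.0 ± 45.4 CPM in FOXR2 and 75.5 ± 15.2 CPM in Control (SD, n = 3 each), and Col4a5 10.3 ± 2.06 CPM in FOXR2 and 7.28 ± 2.07 CPM in Control. Col18a1, whose protein releases the vessel inhibitor endostatin, had 148, 122 and 13.6 CPM in FOXR2 replicates 1, 2 and 3, next to 206, 346 and 108 CPM in Control replicates 1, 2 and 3. FOXR2 replicate 3 was far below the other libraries, and the log2 fold change was -1.22 ± 0.79 (edgeR adjusted p = 0.382), -0.71 when FOXR2 replicate 3 was left out and -0.72 without Control replicate 2. Col4a6 ran from 0.783 to 6.64 CPM in FOXR2 and from 1.57 to 4.80 CPM in Control. Col4a3 and Col4a4, the chains of the kidney filter, had at most 8 counts in any library.

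Summed per kilobase, the 8 basement membrane chains made up 74.4%, 52.7% and 51.9% of collagen mRNA in FOXR2 replicates 1, 2 and 3, next to 62.0%, 70.9% and 31.9% in Control replicates 1, 2 and 3. The 11 fibrillar chains made up 18.1%, 19.5% and 15.8% in FOXR2 replicates 1, 2 and 3, next to 13.9%, 13.5% and 34.7% in Control replicates 1, 2 and 3. Control replicate 3 thus had the lowest basement membrane share and the highest fibrillar share, and the shares of the groups overlapped. All collagens together summed to 144, 114 and 82.7 RPKM in FOXR2 replicates 1, 2 and 3, next to 114, 114 and 196 RPKM in Control replicates 1, 2 and 3.

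**Figure D4:**
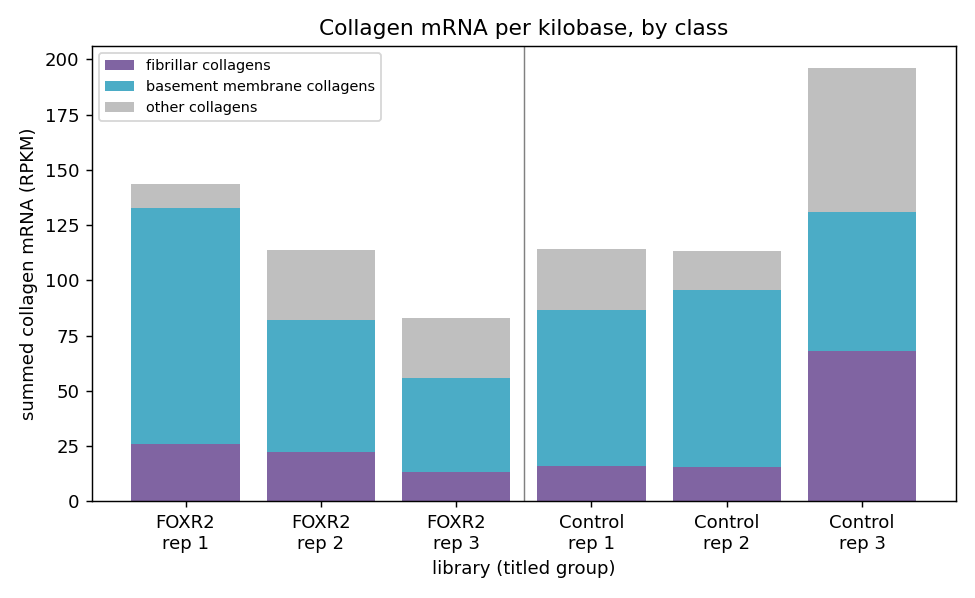
Summed RPKM of the fibrillar, basement membrane and other collagens in each library, stacked, with FOXR2 libraries on the left. Basement membrane chains are the largest class in 5 of the 6 libraries, and Control replicate 3 has the largest fibrillar part.

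Among the 25 other collagens, 14 were tested, edgeR called 0, and 1 had an unadjusted p under 0.05, or 7.14% beside 24.9% of all tested genes. Their median log2 fold change was 0.31, and it was -0.06 without FOXR2 replicate 2, 0.10 without FOXR2 replicate 3, 0.53 when FOXR2 replicate 1 was left out and 0.65 without Control replicate 3. The fibril-associated chains of collagen IX, which coat fibrils of collagen II, differed among themselves. Col9a3 had 1.24, 21.8 and 14.3 CPM in FOXR2 replicates 1, 2 and 3, next to 39.1, 19.5 and 102 CPM in Control replicates 1, 2 and 3, a log2 fold change of -2.10 ± 0.95 (adjusted p = 0.224 by edgeR), or -1.23 without Control replicate 3. Col9a1 was highest in Control replicate 3 at 58.2 CPM and ran from 2.91 to 15.9 CPM in the other 5 libraries. Its log2 fold change was -1.57 ± 0.94 (edgeR adjusted p = 0.346) and 0.04 without that library. Col9a2 differed from both, with 2.15, 3.61 and 9.27 CPM in FOXR2 replicates 1, 2 and 3, next to 3.36, 1.01 and 3.54 CPM in Control replicates 1, 2 and 3. The 6 chains of collagens II, IX and XI, also grouped after their values were seen, summed to 102, 172 and 97.6 CPM in FOXR2 replicates 1, 2 and 3, next to 216, 177 and 788 CPM in Control replicates 1, 2 and 3.

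Col16a1, another fibril-associated chain, was the most abundant of the other collagens at 11.1 RPKM and averaged 62.5 ± 25.1 CPM in FOXR2 and 87.0 ± 38.0 CPM in Control (SD, n = 3 each). Its log2 fold change was -0.48 ± 0.41 (edgeR adjusted p = 0.510) and -0.07 without Control replicate 3. Col12a1, a fibril-associated chain of dense connective tissue, averaged 1.58 ± 1.23 CPM in FOXR2 and 4.84 ± 3.55 CPM in Control (log2 fold change -1.60 ± 0.75, edgeR adjusted p = 0.237, or -0.84 without Control replicate 2). Col20a1 averaged 11.2 ± 8.21 CPM in FOXR2 and 5.70 ± 3.05 CPM in Control, and Col19a1, Col22a1 and Col14a1 did not exceed 5.03 CPM in any library. Col26a1 was the chain with an unadjusted p under 0.05. It had 1.04, 2.02 and 1.02 CPM in FOXR2 replicates 1, 2 and 3, against 0.300, 0.417 and 0.523 CPM in Control replicates 1, 2 and 3, a log2 fold change of 1.70 ± 0.55 (adjusted p = 0.121 by edgeR). Its groups did not overlap, at low levels throughout.

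Collagen VI, which forms beaded microfibrils next to basement membranes, was led by 1 FOXR2 and 1 Control library. Col6a1 had 5.94, 24.8 and 3.14 CPM in FOXR2 replicates 1, 2 and 3, next to 1.92, 2.03 and 14.1 CPM in Control replicates 1, 2 and 3. FOXR2 replicate 2 and Control replicate 3 were the highest of their groups, and the same held for Col6a2, at 3.07, 12.1 and 1.61 CPM in FOXR2 and 1.02, 0.954 and 5.29 CPM in Control, and for Col6a3, at 0.130, 5.0 and 2.04 CPM in FOXR2 and 0.540, 0.119 and 1.86 CPM in Control. The log2 fold changes of Col6a1, Col6a2 and Col6a3 were 0.91 ± 1.01, 1.21 ± 0.95 and 1.5 ± 1.23 (edgeR adjusted p = 0.618, 0.472 and 0.488), and without FOXR2 replicate 2 they were -0.41, -0.05 and 0.35. Col6a4, Col6a5 and Col6a6 had at most 4 counts in any library. The network and anchoring chains Col7a1, Col8a1, Col8a2 and Col10a1 all failed the filter, with Col8a1 at 3.99 CPM in FOXR2 replicate 2 as their highest level. Of the transmembrane collagens, Col23a1 averaged 2.17 ± 0.363 CPM in FOXR2 and 1.98 ± 1.33 CPM in Control, and Col13a1, Col17a1 and Col25a1 failed the filter. Col28a1 did not exceed 1.61 CPM.

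**Figure D5:**
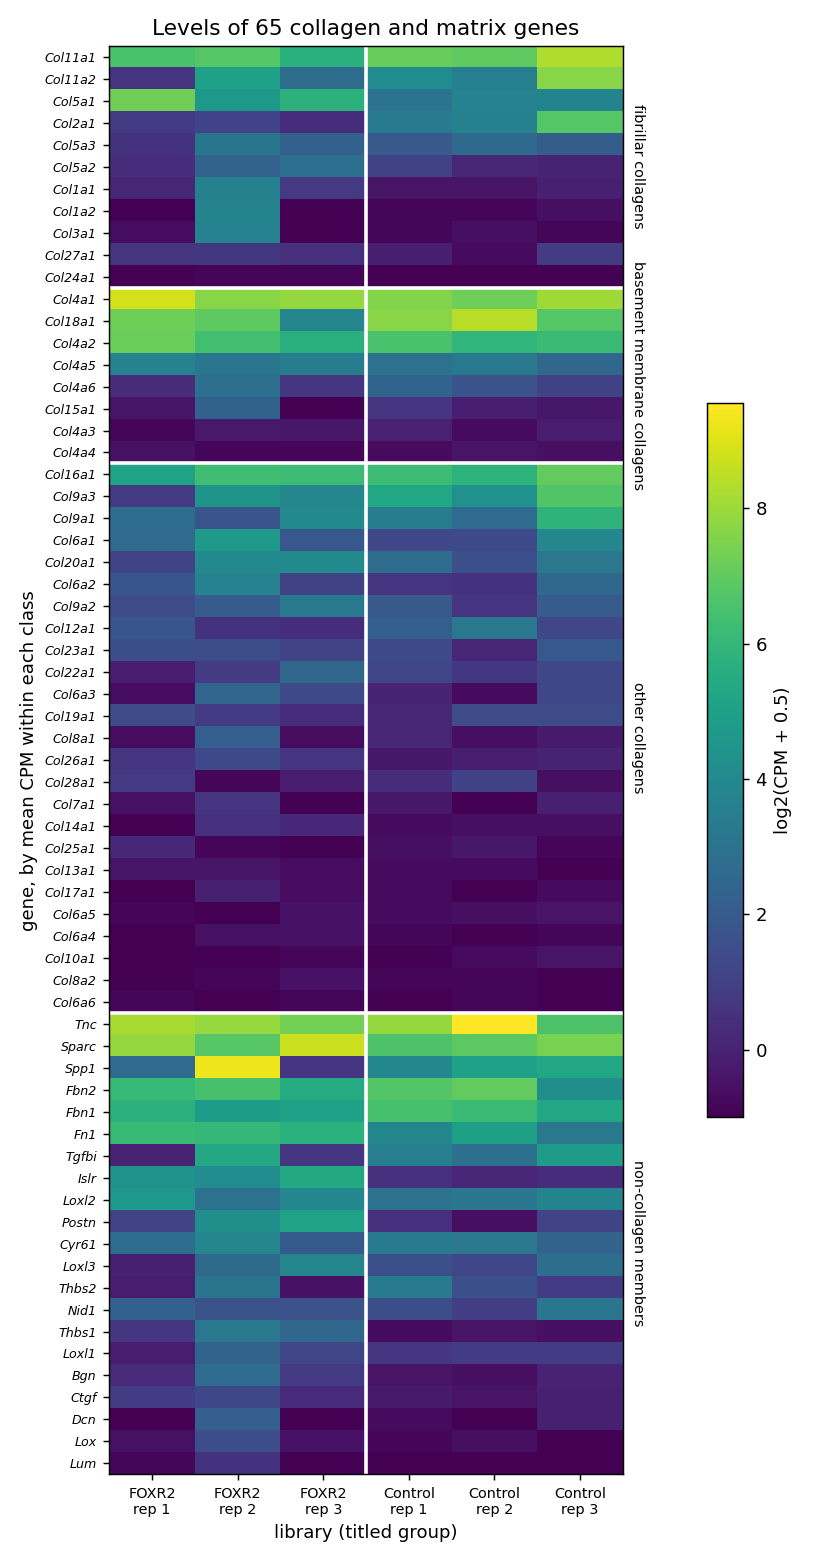
Levels of all 65 genes as log2(CPM + 0.5) by library, with classes divided by horizontal lines, genes ordered by mean CPM and FOXR2 libraries on the left. Islr is bright in the 3 FOXR2 libraries, and Col1a1, Col1a2, Col3a1 and Spp1 stand out in FOXR2 replicate 2.

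Lysyl oxidases, which crosslink collagen and elastin, were not called. Loxl2 was the most abundant, with 24.2, 7.47 and 14.2 CPM in FOXR2 replicates 1, 2 and 3, next to 7.32, 8.28 and 13.1 CPM in Control replicates 1, 2 and 3 (log2 fold change 0.68 ± 0.46, edgeR adjusted p = 0.406, or 0.19 without FOXR2 replicate 1). Loxl3 averaged 6.57 ± 6.56 CPM in FOXR2 and 3.62 ± 2.51 CPM in Control, and Loxl1 2.28 ± 2.15 CPM in FOXR2 and 1.24 ± 0.142 CPM in Control (SD, n = 3 each). Their groups overlapped, and Lox itself had 3, 36 and 3 counts in FOXR2 and 1, 3 and 0 in Control.

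Genes that modify, fold and trim procollagen in the secretory pathway were examined beside the chains. Of 28 present, 25 were tested, and edgeR called 0. An unadjusted p under 0.05 was found for 1 higher and 5 lower, 24% of the 25 beside 24.9% of all tested genes, and 9 were fitted above 0 and 16 below, with a median of -0.21. Plod3, a lysyl hydroxylase that also adds sugars to collagen, had 146, 131 and 113 CPM in FOXR2 replicates 1, 2 and 3, against 216, 269 and 268 CPM in Control replicates 1, 2 and 3. The groups did not overlap, and the log2 fold change was -0.95 ± 0.19 (edgeR adjusted p = 0.0505). The prolyl 3-hydroxylase gene P3h1 had 17.2, 17.7 and 18 CPM in FOXR2 replicates 1, 2 and 3, against 27.7, 48.3 and 40.5 CPM in Control replicates 1, 2 and 3, a log2 fold change of -1.14 ± 0.25 (adjusted p = 0.0589 by edgeR). Pcolce, an enhancer of procollagen cleavage, had a log2 fold change of -0.89 ± 0.31 and Bmp1, the protease it aids, one of 0.47 ± 0.16 (edgeR adjusted p = 0.138 and 0.142). The abundant folding genes P4hb and P4ha1 averaged 781 ± 284 and 223 ± 90.7 CPM in FOXR2, against 829.5 ± 176 and 175 ± 50.9 CPM in Control (SD, n = 3 each).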

How the data were processed

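The deposited table holds raw read counts per gene symbol in 6 libraries, made from poly(A) RNA with a directional kit and sequenced as single reads, per the labels' protocols. TopHat and DESeq2 are named without versions in the submitters' processing notes, with the human build hg19, while the table lists mouse symbols. No counter, annotation, use of strand or rule for reads with several matches is given in the sources used here, and no coordinates were taken from the counts. The group sheet deposited beside the counts contradicts the titles for 6 libraries and was not used for grouping.

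From these counts, edgeR 4.0.16 in R 4.3.3 compared 3 FOXR2 with 3 Control libraries, after filterByExpr with a count minimum of 10 and TMM scaling, by the quasi-likelihood F test with Benjamini-Hochberg adjustment and no covariate. The filter asks for about that count in 3 libraries, so a gene high in 1 group can pass and a gene high in 1 library cannot. RPKM used merged exon lengths of GENCODE M21. The genes and lists were chosen with earlier results of these data known. Named were the called genes, those at an unadjusted p under 0.05 without overlap, and the most abundant and most changed of each class, with others added for completeness. Alternatives were DESeq2 1.42.0, limma-voom (limma 3.58.1), RLE and total-count scaling, no filter, the replicate number as a block, animal sex (from Xist against genes of the Y chromosome), an offset for transcript length and GC content (mgcv 1.9.3, values for 99.41% of tested genes), and each library left out. In a simulation of the FOXR2 and Control comparison over 12960 genes, 198 of them changed, edgeR found 53.1% of 4-fold and 0% of 2-fold changes. In the data 24.9% of tested genes had an unadjusted p under 0.05. The adjustment therefore acts differently there, and the simulated shares need not hold for the data. Floors cover counting error only.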

Additional observations from a re-analysis of the deposited data

How the results depend on the processing

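Of the 44 tested genes, 25 kept the sign of their log2 fold change in each of the 14 alternative fits that gave a value and 19 did not. Genes called higher and lower among the matrix genes numbered 2 and 0 as reported, 6 and 1 with DESeq2, 1 and 0 with limma-voom, 1 and 0 with animal sex as a covariate, and 0 and 0 with the replicate number as a block. Over the fits without 1 library they numbered 0 to 2 higher and 0 lower. Among all genes 119 were higher and 181 lower as reported, 916 and 921 with DESeq2, 7 and 0 with animal sex, 0 and 0 with the replicate block, 119 lower with total-count scaling, and 1 to 111 higher and 0 to 79 lower without 1 library. At an unadjusted p under 0.05, edgeR with the replicate block found 2652 of all genes and 12 matrix genes, and its fits without 1 library 2202 to 3216 and 9 to 15. The deviations of FOXR2 and Control libraries with the same replicate number correlated across genes by -0.0161, -0.241 and -0.0104, so no pairing by number was seen. Deviations were taken from the mean of only 3 libraries per group, so these values cannot exclude a pairing. Log2 fold changes with limma-voom and with the block were -0.59 and -0.95 for Spp1 and -0.34 and -0.29 for Col5a3, which was -0.015 with the length and GC offset. Without 1 library the range was -3.0 to 3.47 for Spp1, -4.23 to 0.64 for Tgfbi, -3.85 to 0.60 for Thbs2, -0.67 to 0.55 for Col5a3, -1.09 to 0.49 for Tnc, -0.41 to 2.52 for Col6a1, -0.05 to 2.5 for Col6a2 and -2.44 to 0.04 for Col9a1, with values of 0.038 for Col9a1 without Control replicate 3 and -0.0496 for Col6a2 without FOXR2 replicate 2. The median of the 18 tested genes that are not collagens was 0.86 as reported, 0.17 with limma-voom, 0.33 with the block and 0.38 without FOXR2 replicate 2. With the block, the adjusted p was 0.114 for Thbs1 and 0.114 for Islr. The causes of these changes were not tested. In the simulation edgeR made 55 calls, 3 of them on unchanged genes, and recovered 0% of 2-fold changes. DESeq2 was not simulated, and in the data it called Col11a1 at a log2 fold change of -1.17 (adjusted p = 0.0438).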

Other observations

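Brain tissue has a matrix of its own, built of hyaluronan-binding and cell-surface proteoglycans. The 27 genes listed for it also include hyaluronan synthases, link proteins, the glycoprotein gene Tnr, and Hspg2 and Agrn, which encode proteoglycans of basement membranes. Together they summed to 5859 to 8846 CPM in FOXR2 and 3819 to 5673 CPM in Control. Of 24 tested, 0 were called by edgeR, 8 were higher and 2 lower at an unadjusted p under 0.05, or 41.7% beside 24.9% of all tested genes. Ptprz1, a receptor phosphatase of glial progenitors that carries chondroitin sulfate, had 1490.4, 1272 and 1501 CPM in FOXR2 replicates 1, 2 and 3, against 856, 679.7 and 579 CPM in Control replicates 1, 2 and 3 (log2 fold change 1.01 ± 0.21, edgeR adjusted p = 0.0536). The syndecan gene Sdc3 had 593, 749 and 1171 CPM in FOXR2 replicates 1, 2 and 3, against 303, 225 and 373 CPM in Control replicates 1, 2 and 3 (log2 fold change 1.48 ± 0.31, edgeR adjusted p = 0.0575), and Sdc2 a log2 fold change of 1.10 ± 0.25 (adjusted p = 0.0618). Bcan, the gene of brevican, averaged 1138 ± 132 CPM in FOXR2 and 1134 ± 337 CPM in Control (SD, n = 3 each).

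Among 16 tested genes of matrix proteases and their inhibitors edgeR called 0, and 4 had an unadjusted p under 0.05, or 25% beside 24.9% of all tested genes. Timp4, an inhibitor of matrix metalloproteinases, had 46.7, 23.2 and 71.7 CPM in FOXR2 replicates 1, 2 and 3, against 15.1, 16.4 and 15.2 CPM in Control replicates 1, 2 and 3 (log2 fold change 1.60 ± 0.39, edgeR adjusted p = 0.0721). Timp2 had a log2 fold change of 1.35 ± 0.46 and Mmp11 of -1.25 ± 0.49 (edgeR adjusted p = 0.135 and 0.176). The gelatinase gene Mmp2 was highest in FOXR2 replicate 3, with 5.15, 31.2 and 419 CPM in FOXR2 replicates 1, 2 and 3, next to 68.1, 21.5 and 30.7 CPM in Control replicates 1, 2 and 3. The stromelysin gene Mmp3 had 2, 120 and 0 counts in FOXR2 and 0, 0 and 0 in Control.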
